A study of Mus musculus with 12 samples.

Results

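Antigen processing and presentation genes were followed in whole lung of A/J mice after ovalbumin (OVA), after ambient particulate matter (PM), and after OVA followed by PM. The 35 genes were chosen by name: 10 of the class II pathway, 16 of the class I pathway and 9 of neither, which are 3 chaperones of the endoplasmic reticulum, 3 costimulators, 2 endosomal enzymes and the lipid-presenting molecule Cd1d1. A gene was measured where the annotation of the array gives its symbol, and no other, to a probe set, and of several such probe sets the one with the highest mean over the 12 arrays was taken. In this way 32 of the 35 genes were measured, 9 of class II and 14 of class I among them, out of 18194 genes with such a probe set. H2-DMb1, H2-T23 and Psme2 had no probe set with that symbol alone and were not analysed here. Levels are GCRMA values on the log2 scale, so a difference of 1 is a doubling. A gene was tested where all 3 arrays of a group being compared reached 4.93, the median of all values, and 31 of the 32 genes did so.

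Each of the 4 groups was 3 arrays, and the study's methods describe RNA from the lungs of 3 animals per group, on the fourth day after exposure to PM. Control mice received phosphate-buffered saline (PBS) only. OVA mice were injected intraperitoneally with 0.4 mg/kg of OVA on day 0 and challenged in the trachea with 30 mg/kg on day 14. PM mice aspirated 50 µl of a suspension of Baltimore particles at 10 mg/ml in PBS, and OVA/PM mice received the OVA regimen and then the particles. All mice were male and of the inbred strain A/J, and the labels give an age of 8 to 10 weeks. A/J mice carry other alleles of the class I and class II chains than the C57BL/6 mouse of the reference genome, and an effect of this on the probe sets was not tested.

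The labels of the OVA and PM arrays carry a doubt that stands before all results. The fold changes that the study tabulates for OVA and for PM correspond to these arrays with those names exchanged. Whether the labels or the tabulated names are the exchanged ones is not settled here, and the study's cell counts in lavage fluid, which bear on it too, were not set against the arrays. The groups are therefore called the arrays labelled OVA and the arrays labelled PM, and every result for either rests on the label. An exchange would swap the names of these results and leave those for OVA/PM against Control and for the interaction as they are.

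In the class I pathway, peptides cut by the proteasome in the cytosol are carried by the transporter Tap1/Tap2 into the endoplasmic reticulum, where tapasin (Tapbp) and chaperones help load them onto a heavy chain bound to beta-2-microglobulin (B2m), a complex found on nearly all nucleated cells. In the class II pathway, dendritic cells, B cells and macrophages load peptides from ingested proteins onto H2-A and H2-E molecules in endosomes, after the invariant chain Cd74 has been cut away and with H2-DM as editor and H2-O as its inhibitor. Ciita and Nlrc5 are the master regulators of class II and class I transcription, and interferon-gamma is the best known inducer of both pathways. In whole lung, more cells of a type and more RNA per cell cannot be told apart.

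Of the measured genes 15 lie on chromosome 17, most of them in the major histocompatibility complex. RefSeq promoter sequences (mouse build GRCm38.p6) were matched by symbol for 26 of the 35 genes. The stretches shown are the 120 bases before the start of transcription of a chain each of H2-A and H2-E and of both chains of H2-O, to let their promoters be compared, and the whole interval between the starts of Psmb9 and Tap1, which are read in opposite directions from 225 shared bases. Capitals mark CCAAT or its reverse complement, the core of the Y box that class II promoters are known for.
H2-Aa: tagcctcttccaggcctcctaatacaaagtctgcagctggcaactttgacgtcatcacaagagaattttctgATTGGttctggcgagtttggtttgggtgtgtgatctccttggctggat
H2-Eb1: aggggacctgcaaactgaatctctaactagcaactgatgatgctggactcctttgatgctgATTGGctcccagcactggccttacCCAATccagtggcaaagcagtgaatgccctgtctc
H2-Oa: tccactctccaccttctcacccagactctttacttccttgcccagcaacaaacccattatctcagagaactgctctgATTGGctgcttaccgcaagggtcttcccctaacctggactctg
H2-Ob: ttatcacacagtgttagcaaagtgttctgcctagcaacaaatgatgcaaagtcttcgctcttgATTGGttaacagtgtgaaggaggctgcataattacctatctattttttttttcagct
Psmb9 to Tap1: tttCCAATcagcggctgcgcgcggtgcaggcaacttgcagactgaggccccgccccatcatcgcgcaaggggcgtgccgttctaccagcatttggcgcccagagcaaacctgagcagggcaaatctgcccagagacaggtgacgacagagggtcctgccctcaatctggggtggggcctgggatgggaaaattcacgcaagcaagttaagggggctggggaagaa

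These stretches are chr17:34287824-34287943 on the minus strand for H2-Aa and, on the plus strand, chr17:34305747-34305866 for H2-Eb1, chr17:34092259-34092378 for H2-Oa, chr17:34238785-34238904 for H2-Ob and chr17:34187331-34187555 for Psmb9 to Tap1. On either strand, CCAAT occurred in the 250 bases before the start in 7 of the 7 class II genes with an entry (H2-Aa, H2-Eb1, H2-DMa, H2-DMb1, H2-DMb2, H2-Oa and H2-Ob), in 7 of their 8 windows. It occurred in 8 of 13 class I genes, in 9 of their 15 windows. The share over all 32851 promoters was 33.8%. Of the genes of neither class, Canx, Calr, Pdia3 and Lgmn held it too. The match began 48 bases before the start in H2-Aa, 43 in H2-Oa and 57 in H2-Ob, and H2-Eb1 held a pair, at 59 and 35 bases. These are matches of letters only, and no binding was measured.

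The arrays were alike in overall scale, with medians between 4.84 and 5.03, and none repeated the values of another. Markers of alveolar type 2 cells marked every array as lung: their 7 measured genes averaged between 13.90 and 14.11. Striated muscle markers differed, averaging 8.26 on OVA/PM replicate 1 and between 9.70 and 11.97 on the other 11 arrays, and 5 of their 10 genes were lower in OVA/PM than in Control. Over all genes tested, the median log2 fold change against Control was 0.00 for OVA, 0.03 for PM and 0.01 for OVA/PM.

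Presentation genes were higher in the lungs labelled OVA and in those given both agents, and none was lower. Against Control, 15 of the 31 genes tested were up-regulated in the arrays labelled OVA (limma, adjusted p under 0.05 over all probe sets tested), where 11.2% of all genes were higher and 7.58% lower. In OVA/PM against Control 20 of 31 were up-regulated, where 13.9% of all genes were higher and 9.73% lower. The median log2 fold change of the 31 genes was 0.80 in the arrays labelled OVA and 0.79 in OVA/PM. All 31 had a fold change above 0 in either comparison, also after a further quantile normalization. Of all genes tested, 5688 of 11328 lay above 0 in OVA and 5786 of 11335 in OVA/PM. The 3 arrays lay above all 3 Control arrays for 23 of 31 genes in OVA, against 25.3% of all genes tested, and for 24 of 31 in OVA/PM, against 26.1%.

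In the arrays labelled PM, by contrast, 0 of 31 genes passed the threshold, where 0.0896% of all genes were higher and 0.0% lower. At an unadjusted p under 0.05 limma counted 6 of the 31, beside 630 of all 11160 genes tested. The median log2 fold change of the 31 was 0.22, and 28 of 31 genes lay above 0, as did 6840 of all genes tested. All 3 arrays lay above the Control arrays for 4 genes, H2-Aa, H2-Eb1, Psme1 and Erap1, against 8.55% of all genes tested. For Psme1 the margin vanished on rounding, with 12.16 on both PM replicate 3 and Control replicate 3.

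The counts depend on single arrays. Left out in turn, the arrays moved the count for OVA from 15 to 1 without Control replicate 1, 1 without Control replicate 2, 14 without Control replicate 3, 1 without OVA replicate 1, 17 without OVA replicate 2 and 0 without OVA replicate 3, and the share of all genes that were higher moved between 1.48% and 12.3%. The count for OVA/PM moved from 20 to 9, 6 and 22 without Control replicates 1, 2 and 3, and to 10, 12 and 12 without OVA/PM replicates 1, 2 and 3. In these fits the share of all genes that were higher in OVA/PM, 13.9% with every array, lay between 7.51% and 12.7%. Control replicate 1 was the lowest Control array for 26 of the 32 genes and Control replicate 3 the highest for 25.

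**Figure D1:**
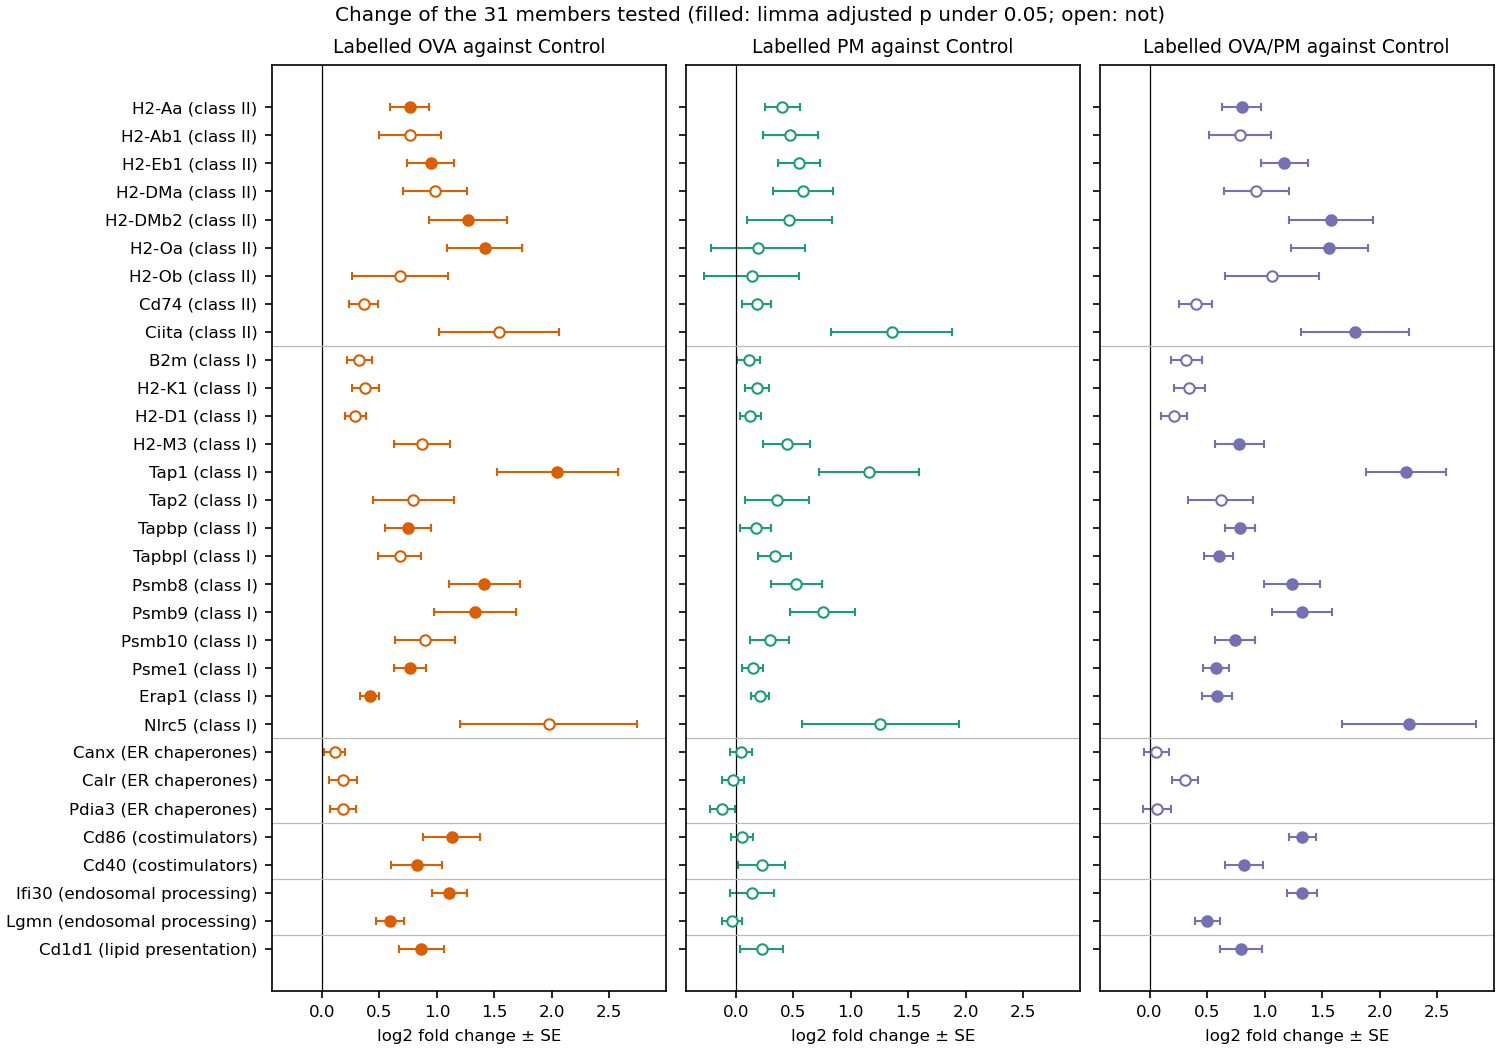
Log2 fold change against Control of the 31 genes tested (x axis, with the standard error of the limma fit as bars), by gene and role (y axis), for the arrays labelled OVA, PM and OVA/PM, with 3 arrays per group. Filled points passed an adjusted p of 0.05: 15 genes in OVA, 0 in PM and 20 in OVA/PM, and every point for OVA and OVA/PM lies to the right of 0.

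Among the class II genes, the beta chain of H2-E was the clearest. H2-Eb1 (chr17:34305867-34316674) measured 11.87, 12.12 and 12.58 in Control, 13.21, 12.90 and 13.31 on the arrays labelled OVA, 12.83, 12.70 and 12.69 on those labelled PM, and 13.17, 13.56 and 13.37 in OVA/PM. The 3 treated groups lay above every Control array, and the groups labelled OVA and OVA/PM lay above that labelled PM. The log2 fold change against Control was 0.95 ± 0.21 (SE) for OVA (limma, adjusted p = 0.0317), 0.55 ± 0.18 for PM (adjusted p = 0.534) and 1.17 ± 0.20 for OVA/PM (adjusted p = 0.0115). The last call held in each of the 6 fits without 1 array, at an adjusted p of at most 0.0489.

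H2-Aa, the alpha chain of H2-A, measured between 12.79 and 13.37 in Control, between 13.64 and 13.96 in OVA, between 13.43 and 13.51 in PM and between 13.69 and 14.00 in OVA/PM. It was up-regulated by 0.76 ± 0.17 in OVA (limma, adjusted p = 0.0328) and by 0.80 ± 0.17 in OVA/PM (adjusted p = 0.022), and the 0.40 ± 0.15 for PM had an adjusted p of 0.577. Its partner H2-Ab1 gave nearly the same sizes, 0.77 ± 0.27 and 0.79 ± 0.27, with wider errors and adjusted p-values of 0.0946 and 0.0855. Cd74, the invariant chain, was among the brightest class II probe sets at 13.85, 14.00 and 14.27 in Control and 14.27, 14.56 and 14.49 in OVA/PM. Its log2 fold changes were small, 0.36 ± 0.13 in OVA (limma, adjusted p = 0.0909) and 0.40 ± 0.14 in OVA/PM (adjusted p = 0.0932). The probe sets of H2-Aa and H2-Ab1 are of types that can also bind related transcripts, as are those of H2-DMb2, H2-K1 and H2-D1, so these genes are uncertain between near copies.

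Of the editors of peptide loading, H2-DMb2 and H2-Oa passed the threshold in both OVA and OVA/PM. H2-DMb2, a beta chain of H2-DM, measured 8.11, 8.88 and 9.52 in Control, 10.08, 10.16 and 10.08 in OVA, 9.69, 9.04 and 9.18 in PM, and 10.71, 10.04 and 10.51 in OVA/PM. That is 1.27 ± 0.34 on the log2 scale for OVA (limma, adjusted p = 0.0479) and 1.58 ± 0.37 for OVA/PM (adjusted p = 0.0285), with no overlap of either group with Control. H2-DMa, the alpha chain, stood at 0.98 ± 0.28 and 0.93 ± 0.28, short of the threshold at adjusted p-values of 0.0561 and 0.0613.

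H2-Oa, the alpha chain of the inhibitor H2-O, which B cells are known to make, measured 6.19, 6.55 and 7.45 in Control. It reached 8.22, 8.30 and 7.92 on the arrays labelled OVA, 7.59, 6.57 and 6.62 on those labelled PM, and 8.64, 8.05 and 8.20 in OVA/PM. Every OVA and OVA/PM array lay above every Control and PM array. The rise was 2.67-fold in OVA (limma, log2 1.41 ± 0.33, adjusted p = 0.0351) and 2.95-fold in OVA/PM (1.56 ± 0.34, adjusted p = 0.0231). Its partner H2-Ob gave 0.68 ± 0.42 and 1.06 ± 0.41 with adjusted p-values of 0.269 and 0.113, and its Control replicate 3, at 10.98, lay above OVA replicate 3, at 10.32.

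Ciita, the class II regulator, was at the low end of the scale in Control, at 5.07, 5.82 and 7.08. It measured 7.90, 7.06 and 7.62 in OVA, 7.05, 7.91 and 7.07 in PM, and 7.73, 7.87 and 7.72 in OVA/PM. Control replicate 3 overlapped the OVA and PM arrays and lay below the OVA/PM arrays. The change was 3.44-fold in OVA/PM (limma, log2 1.78 ± 0.47, adjusted p = 0.0412), and the 1.54 ± 0.52 for OVA and 1.35 ± 0.53 for PM had adjusted p-values of 0.0835 and 0.584. Further probe sets of Ciita gave 1.49 and 1.19 in OVA/PM and were not called (adjusted p = 0.0893 and 0.191). In all, 4 of 9 class II genes passed in OVA and 5 of 9 in OVA/PM, with medians of 0.95 and 1.06, and the median for PM was 0.47.

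**Figure D2:**
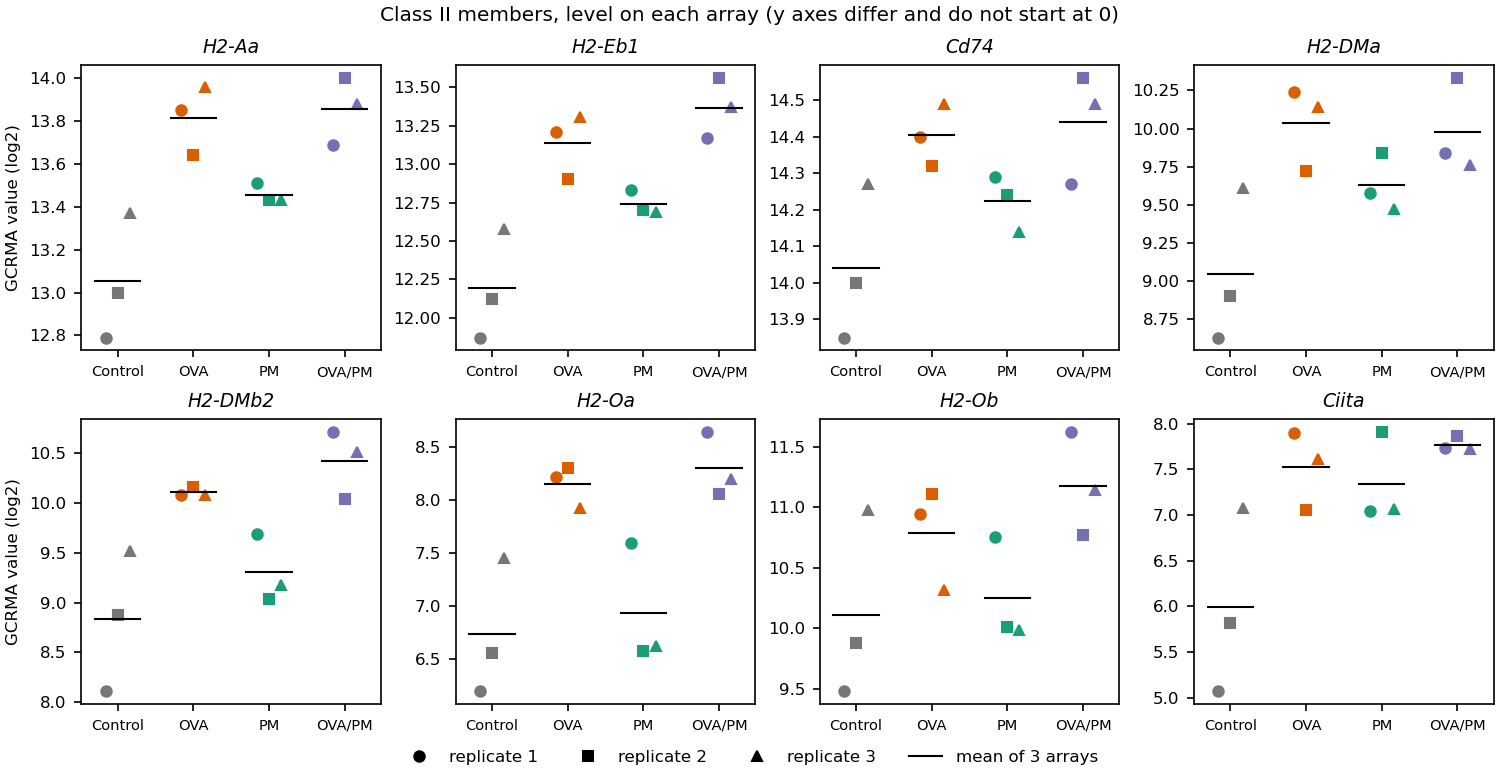
GCRMA level (y axis, log2, with a range of its own in each panel) of 8 class II genes on each of the 12 arrays, by the group of the label (x axis), with the mean of 3 arrays as a line and the replicate number as the shape. Control replicate 3 is the highest Control array in each panel, and in H2-DMb2, H2-Oa and H2-Ob replicate 2 is the highest OVA array.

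In OVA/PM the class I genes with the largest log2 fold changes were Nlrc5, the regulator of the pathway, and the peptide transporter subunit Tap1. Tap1 (chr17:34187556-34197225) measured 7.19, 7.41 and 8.51 in Control, 10.30, 8.75 and 10.20 on the arrays labelled OVA, 8.56, 9.55 and 8.47 on those labelled PM, and 9.68, 10.10 and 10.03 in OVA/PM. The OVA and OVA/PM arrays lay above all Control arrays, OVA replicate 2 only just, and PM replicate 3 lay within the Control range. The rise was 4.13-fold in OVA (limma, log2 2.04 ± 0.53, adjusted p = 0.0451) and 4.69-fold in OVA/PM (2.23 ± 0.35, adjusted p = 0.00835), the latter called in each of the 6 fits without 1 array. For PM the log2 fold change was 1.16 ± 0.43 (adjusted p = 0.572).

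Nlrc5 followed the same arrays with a wider spread. It measured 6.59, 7.29 and 8.98 in Control, 10.42, 8.36 and 10.00 in OVA, 8.36, 9.82 and 8.46 in PM, and 9.63, 10.20 and 9.80 in OVA/PM. OVA replicate 2 and PM replicates 1 and 3 lay under the highest Control array, and only the OVA/PM group lay above all Control arrays. The log2 fold change was 2.26 ± 0.58 in OVA/PM (limma, adjusted p = 0.0386), 1.97 ± 0.77 in OVA (adjusted p = 0.115) and 1.26 ± 0.69 in PM (adjusted p = 0.677). Without 1 array in turn, the OVA/PM call was lost in 5 of 6 fits, with an adjusted p of up to 0.121.

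The inducible subunits that turn the proteasome into the immunoproteasome were higher too. Psmb8 measured 11.05, 11.41 and 11.90 in Control, 13.17, 12.31 and 13.11 in OVA, 12.00, 12.11 and 11.84 in PM, and 12.54, 13.00 and 12.54 in OVA/PM. It was up-regulated 2.66-fold in OVA (limma, log2 1.41 ± 0.31, adjusted p = 0.0315) and 2.36-fold in OVA/PM (1.24 ± 0.24, adjusted p = 0.017), with no overlap with Control. Psmb9, which shares its promoter interval with Tap1, measured 10.04, 10.40 and 11.08 in Control, 12.19, 11.23 and 12.08 in OVA, and 11.67, 11.97 and 11.83 in OVA/PM. The rise was 2.51-fold in OVA (log2 1.33 ± 0.35, adjusted p = 0.0486) and 2.50-fold in OVA/PM (1.32 ± 0.26, adjusted p = 0.0176). Psmb10 passed in OVA/PM (0.74 ± 0.18, adjusted p = 0.0306) and stood at 0.90 ± 0.26 in OVA (adjusted p = 0.0588).

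The constitutive subunits that these replace were looked up after their values had been seen. Psmb5, Psmb6 and Psmb7 had log2 fold changes between 0.28 and 0.40 in OVA and between 0.03 and 0.28 in OVA/PM, and none passed the threshold, at adjusted p-values of 0.0517 or more in OVA and 0.0604 or more in OVA/PM. Their levels lay between 11.01 and 12.40 on all 12 arrays. The difference between inducible and constitutive subunits was not itself tested.

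Of the other class I accessories, Psme1, Tapbp and Erap1 passed in both OVA and OVA/PM. Psme1, a subunit of the proteasome activator PA28, measured 11.89, 12.09 and 12.16 in Control, 12.99, 12.56 and 12.87 in OVA, 12.18, 12.23 and 12.16 in PM, and 12.51, 12.74 and 12.61 in OVA/PM, and its OVA arrays lay above all others but for an overlap with OVA/PM. Its log2 fold change was 0.76 ± 0.14 in OVA (limma, adjusted p = 0.0223) and 0.58 ± 0.11 in OVA/PM (adjusted p = 0.0171). Tapbp rose by 0.75 ± 0.20 in OVA (adjusted p = 0.0484) and by 0.79 ± 0.13 in OVA/PM (adjusted p = 0.00945), the latter in each of the 6 fits without 1 array. A second, dimmer probe set of Tapbp was not called, at 0.81 in OVA (adjusted p = 0.0718) and 0.14 in OVA/PM (adjusted p = 0.782). Erap1, the aminopeptidase that trims peptides in the endoplasmic reticulum, rose by 0.41 ± 0.08 in OVA (adjusted p = 0.0245) and by 0.58 ± 0.13 in OVA/PM (adjusted p = 0.0252). Tapbpl, a tapasin-like editor, and H2-M3, a nonclassical class I chain, passed in OVA/PM only, at 0.60 ± 0.13 and 0.78 ± 0.21, beside 0.68 ± 0.18 and 0.87 ± 0.24 in OVA (adjusted p = 0.0513 and 0.0551). Tap2 passed in neither, at 0.80 ± 0.35 and 0.62 ± 0.28.

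The chains of the class I molecule itself were bright on every array, and what they showed depended on the probe set. B2m measured 14.44, 14.56 and 14.74 in Control, 14.93, 14.78 and 15 in OVA and 14.69, 14.98 and 15.02 in OVA/PM, with log2 fold changes of 0.33 ± 0.11 and 0.32 ± 0.13 that did not pass the threshold (limma, adjusted p = 0.0842 and 0.134). The brightest probe sets of H2-K1 and H2-D1 lay between 13.77 and 15.24 on all arrays, with log2 fold changes from 0.21 to 0.38 and no call. Dimmer probe sets of H2-K1 were called in both comparisons, at 1.21 and 0.92 in OVA (limma, adjusted p = 0.0333 and 0.0356) and at 1.31 and 0.86 in OVA/PM (adjusted p = 0.011 and 0.0334), beside a call at 0.99 in OVA/PM for a probe set near the filter level (adjusted p = 0.0264). Of H2-D1, 3 further probe sets were called in OVA, at 0.49 to 0.52, and 2 in OVA/PM, at 0.45 and 0.47. In all, 6 of 14 class I genes passed in OVA and 10 of 14 in OVA/PM, with medians of 0.78 and 0.68, and the median for PM was 0.32.

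**Figure D3:**
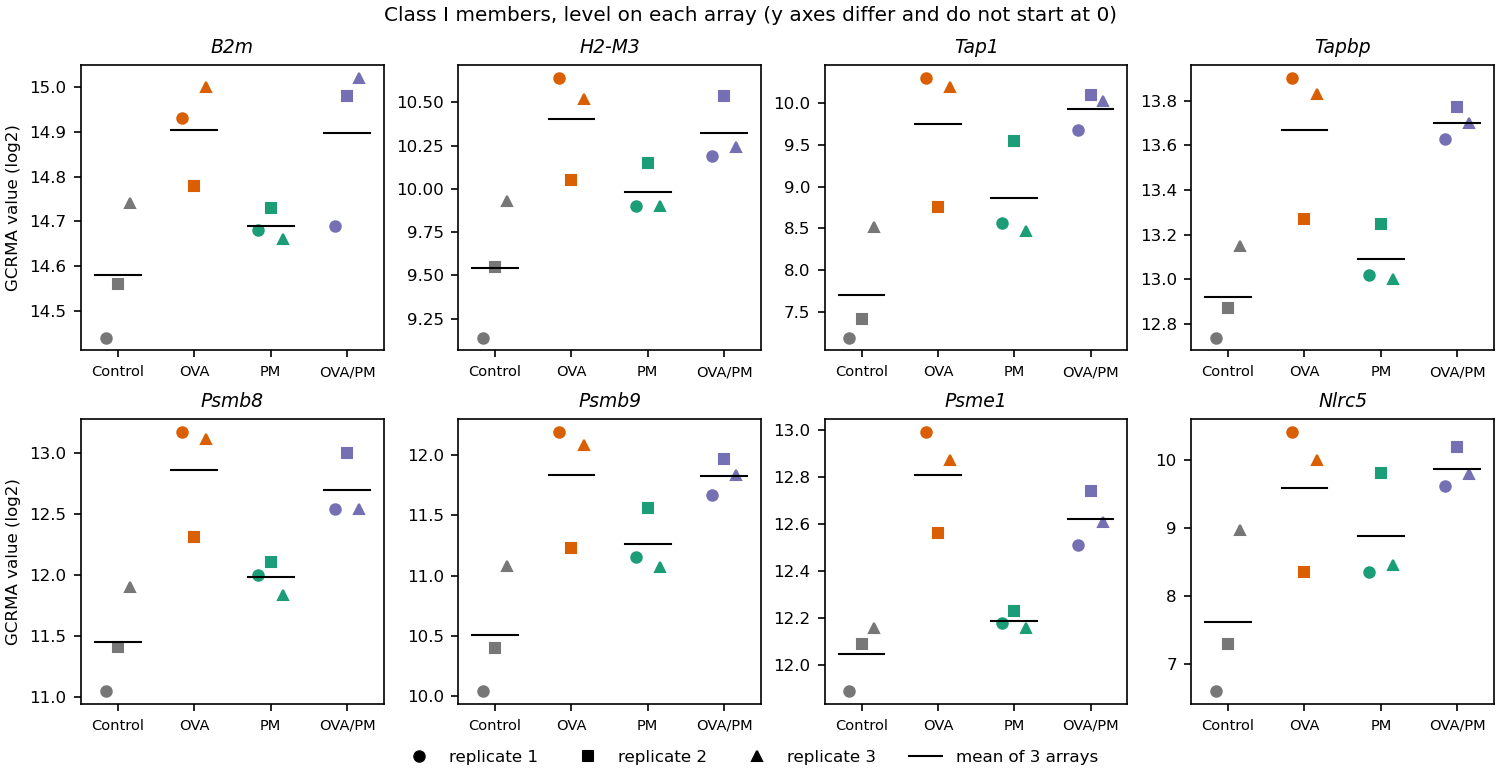
GCRMA level (y axis, log2, with a range of its own in each panel) of 8 class I genes on each of the 12 arrays, by the group of the label (x axis), with the mean of 3 arrays as a line and the replicate number as the shape. OVA replicate 2 is the lowest OVA array in every panel, and PM replicate 2 the highest PM array.

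Set against each other, the means of the classes changed by similar amounts. The mean of the 9 class II genes lay below that of the 14 class I genes by 0.59 ± 0.20 (SD, n = 3) in Control, 0.54 ± 0.29 in OVA, 0.54 ± 0.23 in PM and 0.37 ± 0.16 in OVA/PM. Against Control the class II mean was 0.97 higher and the class I mean 0.92 higher in OVA, 0.48 and 0.43 in PM, and 1.12 and 0.90 in OVA/PM. The gap therefore moved by 0.05, 0.05 and 0.22, within the spread of the arrays for OVA and PM and by about as much as 1 SD for OVA/PM. No test was made of these means, because the genes were chosen with results known. With medians in place of means the gap moved by -0.44, -0.39 and 0.03. On every array the class II median was the level of H2-Ob, and the class I median lay midway between Psmb9 and Psmb10. The gap of the medians therefore describes these genes and not the classes as wholes.

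**Figure D4:**
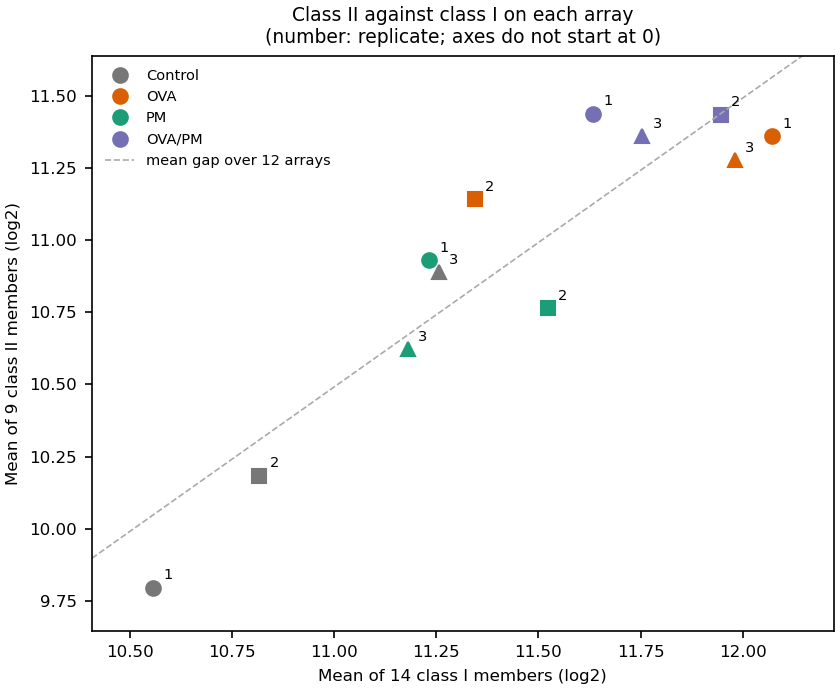
Mean log2 level of the 9 class II genes (y axis) against that of the 14 class I genes (x axis) on each of the 12 arrays, coloured by the group of the label and numbered by replicate, with the mean gap as a dashed line. The Control arrays spread from 9.80 to 10.89 in class II and from 10.56 to 11.26 in class I, and OVA replicate 2 lies apart from the other OVA arrays in class I, at 11.34.

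Which array of a group was high or low differed between genes. OVA replicate 2 was the lowest OVA array for 14 of 14 class I genes, for 9 of 9 genes of neither class (Cd80 included) and for 6 of 9 class II genes, whereas it was lowest for 28.9% of all genes that reached the level in a group. The 3 exceptions were H2-DMb2, H2-Oa and H2-Ob, for which it was the highest OVA array. In OVA/PM the same 3 genes were highest on replicate 1, and the other 6 class II genes and 12 of 14 class I genes were highest on replicate 2. PM replicate 2 was the highest PM array for 11 of 14 class I genes. H2-DMb2, H2-Oa and H2-Ob were highest on PM replicate 1.

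Markers of other cells and of interferon-gamma gave the same arrays different ranks, and their part in these orders was not tested. The 11 B cell markers averaged 8.59, 8.59 and 8.10 on the OVA arrays and 8.76, 8.18 and 8.54 on the OVA/PM arrays, so that OVA replicate 3 and OVA/PM replicate 2 were lowest, as they were for H2-Oa and H2-Ob. On the PM arrays they averaged 8.04, 7.38 and 7.62, and on the Control arrays 6.86, 7.47 and 7.95. The 16 genes of the interferon-gamma response averaged 10.25, 8.64 and 9.95 on the OVA arrays and 8.11, 8.99 and 8.48 on the PM arrays. OVA replicate 2 and PM replicate 2 were thus the lowest and the highest of their groups, as they were for Tap1 and Nlrc5. Macrophage and monocyte markers also had OVA replicate 2 lowest, with averages of 10.95, 10.16 and 10.89 on the OVA arrays, and OVA/PM replicate 2 highest, with 10.35, 10.94 and 10.71, and on the PM arrays they averaged 9.16, 9.02 and 9.63, with replicate 2 lowest. On the Control arrays the interferon-gamma response averaged 7.29, 7.58 and 8.03, in the order of the class I and class II means.

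Dimmer probe sets tended to have the larger log2 fold changes. Across the 31 genes, the mean Control level and the log2 fold change had a Spearman rho of -0.74 in OVA and -0.74 in OVA/PM, against -0.23 and -0.24 over all genes tested, and the genes of an array share its scaling and background correction. The Control mean enters the fold change with a minus sign, so a negative value is partly built in, and no more is read from it than a description. At the low end stood Ciita, H2-Oa, Cd86, Nlrc5 and Tap1, and at the high end Cd74, B2m and H2-D1. Whether bright probe sets were limited in their range was not tested, and levels of different probe sets are not comparable as amounts of RNA.

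**Figure D5:**
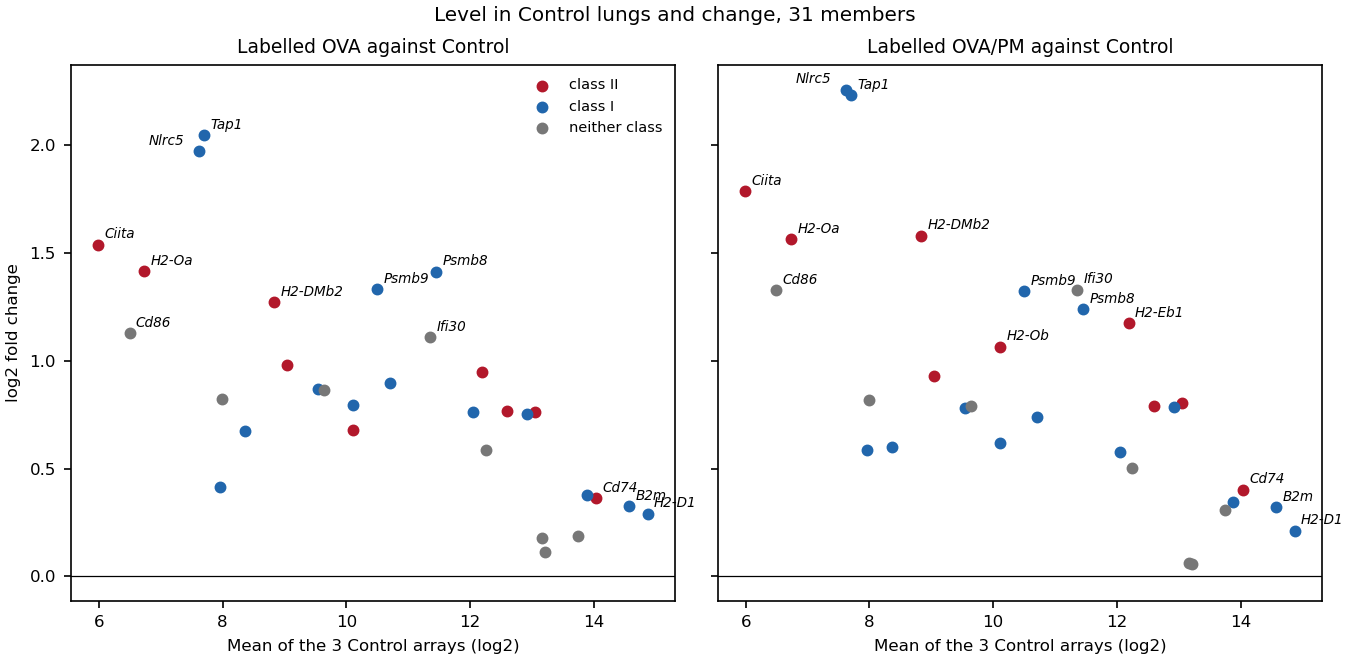
Log2 fold change against Control (y axis) and mean level of the 3 Control arrays (x axis, log2) for the 31 genes tested, in the arrays labelled OVA (left) and OVA/PM (right), coloured by class. Genes with a change above 1 or a Control level above 14 are named, and the brightest, H2-D1, changed by 0.29 and 0.21.

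Genes that were counted with neither class fell into a pair of patterns. The means of the classes leave these genes out and depend on that assignment. The chaperones Canx, Calr and Pdia3, which fold many glycoproteins, lay between 12.90 and 14.18 on every array, and none passed the threshold against Control, with log2 fold changes from -0.12 to 0.31 over the 3 comparisons. Calr came nearest, at 0.31 ± 0.11 in OVA/PM (limma, adjusted p = 0.0936), and a dimmer probe set of it was called there, at 0.40 (adjusted p = 0.0446). Cd80 lay between 3.57 and 4.10 on every array, under the level of 4.93, and was not tested.

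Cd86, the other ligand of Cd28, separated the OVA and OVA/PM arrays from the rest. It measured 6.39, 6.63 and 6.47 in Control, 7.89, 7.05 and 7.94 on the arrays labelled OVA, 6.62, 6.47 and 6.56 on those labelled PM, and 7.65, 7.87 and 7.95 in OVA/PM. The arrays labelled PM lay within the Control range. The rise was 2.19-fold in OVA (limma, log2 1.13 ± 0.25, adjusted p = 0.0324) and 2.51-fold in OVA/PM (1.33 ± 0.12, adjusted p = 0.00142), and the 0.05 ± 0.09 for PM had an adjusted p of 0.899. Cd40, the receptor through which T cells activate these cells, rose by 0.82 ± 0.22 in OVA (adjusted p = 0.0491) and by 0.82 ± 0.17 in OVA/PM (adjusted p = 0.019).

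Ifi30, the thiol reductase that opens disulfide bonds of antigens in endosomes, had the lowest adjusted p of the 31 genes in OVA. It measured 11.49, 11.42 and 11.17 in Control, 12.67, 12.20 and 12.53 in OVA, 11.52, 11.14 and 11.84 in PM, and 12.54, 12.86 and 12.66 in OVA/PM, and the OVA and OVA/PM arrays lay above all others. The log2 fold change was 1.11 ± 0.15 in OVA (limma, adjusted p = 0.0136) and 1.33 ± 0.13 in OVA/PM (adjusted p = 0.00187). Lgmn, an endosomal protease, rose by 0.59 ± 0.12 and 0.50 ± 0.11 (adjusted p = 0.0285 and 0.022). Cd1d1, which presents lipids to natural killer T cells, rose by 0.86 ± 0.19 and 0.79 ± 0.18 (adjusted p = 0.0335 and 0.0279). For PM, Ifi30, Lgmn and Cd1d1 stood at 0.14 ± 0.19, -0.03 ± 0.09 and 0.22 ± 0.19.

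The OVA/PM arrays differed from those labelled OVA in none of these genes past the threshold. If the labels are exchanged, this is the comparison with lungs given PM alone. In OVA/PM against OVA, 0 of 31 were called, where 0.15% of all genes were higher and 0.00881% lower. An unadjusted p under 0.05 in limma was found for 0 of 31, beside 930 of all 11348 genes tested. The log2 differences of the 31 genes lay between -0.19 and 0.39, with 15 of 31 above 0, beside 6044 of all genes tested. The interaction is the log2 change with both agents beyond the sum of the log2 changes with either. It was called for 0 of 31 genes, where 0.035% of all genes were called in either direction. Here too 0 of 31 had an unadjusted p under 0.05, beside 503 of all 11416 genes tested. The median interaction was -0.23 over the 31 genes and -0.02 over all genes tested, and it lay above 0 for 5 of 31 genes, beside 5095 of all genes tested.

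Against the arrays labelled PM, OVA/PM was higher in 10 of 31 genes and lower in none, where 9.13% of all genes were higher and 6.72% lower. The 10 were H2-Eb1, H2-DMb2, H2-Oa, Tapbp, Psmb8, Psme1, Cd86, Ifi30, Lgmn and Cd1d1. Cd86 had the lowest adjusted p, with a log2 difference of 1.27 ± 0.11 (limma, adjusted p = 0.00198), followed by Ifi30 at 1.19 ± 0.19 (adjusted p = 0.0124). Tap1 stood at 1.08 ± 0.30 (adjusted p = 0.0635) and Nlrc5 at 0.998 ± 0.398 (adjusted p = 0.154), and PM replicate 2 was the highest PM array in both. The count fell to 2 without PM replicate 3 or OVA/PM replicate 3, to 4 or 5 without OVA/PM replicate 1, OVA/PM replicate 2 or PM replicate 1, and to 8 without PM replicate 2, and Cd86 and Ifi30 were called in each of these 6 fits. In these fits between 5.47% and 6.66% of all genes were higher.

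Between the arrays labelled OVA and those labelled PM, Psme1 was the single call among 31 genes, and it was higher in OVA. Of all genes, 4.23% were higher and 1.9% lower. The log2 difference of Psme1 was 0.62 ± 0.13 (limma, adjusted p = 0.049). The median difference of the 31 genes was 0.43, and 15 of 31 had an unadjusted p under 0.05 in limma, beside 3724 of all 11332 genes tested. All 31 differences lay above 0, as did 5168 of all genes tested. For 15 of 31 genes every array labelled OVA lay above every array labelled PM, beside 2245 of all genes tested. Without OVA replicate 2 the count was 13, without PM replicate 1 it was 2, and without OVA replicate 1 or 3 or PM replicate 2 or 3 it was 0. Of all genes, 8.87% were higher without OVA replicate 2 and 0.379% without PM replicate 1. In the other fits without 1 array the share lay between 0.0176% and 0.449%.

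Other genes of the pathway and of interferon-gamma were counted from fixed lists. Of 35 other antigen presentation genes tested, 5 were higher in OVA, 0 in PM and 11 in OVA/PM, and 0 were lower, with medians of 0.26, 0.03 and 0.28. The share higher was 14.3% in OVA, near the 11.2% of all genes, and 31.4% in OVA/PM, beside 13.9%. The genes named from this list are those with the lowest p against Control in OVA or in OVA/PM. Ctss, the protease that makes the last cut in Cd74, rose by 1.23 ± 0.12 in OVA (limma, adjusted p = 0.00763) and by 1.38 ± 0.13 in OVA/PM (adjusted p = 0.0016). Cd83, a marker of mature dendritic cells that stabilizes surface class II, rose by 1.29 ± 0.19 and 1.55 ± 0.18 (adjusted p = 0.0152 and 0.00314). Marchf1, a ubiquitin ligase that removes class II from the surface, rose by 1.36 ± 0.18 in OVA/PM (adjusted p = 0.00566). Ctsb rose by 0.85 ± 0.11 in OVA (limma, adjusted p = 0.0112) and by 0.91 ± 0.10 in OVA/PM (adjusted p = 0.00309). Ctsl rose by 0.66 ± 0.10 in OVA (limma, adjusted p = 0.0151). Of the interferon-gamma response, 7 of 13 genes tested were higher and 1 lower in OVA, and 12 of 13 higher and 1 lower in OVA/PM, with 0 of 11 called in PM. The shares of 53.8% and 92.3% higher stand beside 11.2% and 13.9% of all genes. The gene called lower in both was Ifngr1, with log2 fold changes of -0.341 in OVA and -0.545 in OVA/PM. Irf8, a transcription factor of this response and of dendritic cells, rose by 1.04 ± 0.16 and 1.20 ± 0.12 (adjusted p = 0.0152 and 0.00221).

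Many, though not all, markers of the cells that present antigen were higher on the same arrays, and their part in these results was not tested. Of 15 macrophage and monocyte markers 10 were higher in OVA, 0 in PM and 11 in OVA/PM, and the log2 of their summed level ranged from 13.60 to 13.80 in Control, 14.57 to 15.26 in OVA, 13.72 to 14.32 in PM and 14.74 to 15.28 in OVA/PM. Of the dendritic cell markers 4 of 9 were higher and 1 lower in OVA, and 5 of 9 higher in OVA/PM, with summed levels of 11.56 to 11.75 in Control, 12.66 to 12.90 in OVA, 11.78 to 12.00 in PM and 13.10 to 13.20 in OVA/PM. Itgax, which encodes CD11c and was counted in the dendritic list, rose by 2.03 ± 0.17 in OVA (limma, adjusted p = 0.00572) and by 2.49 ± 0.14 in OVA/PM (adjusted p = 0.000297). Which cells held this RNA was not tested. The dendritic cell marker that was called lower was Zbtb46, at -0.63 ± 0.14 in OVA (limma, adjusted p = 0.0318). Cd209a of the same list was not called there, but its OVA arrays, at 6.08, 6.76 and 5.35, lay below the Control arrays, at 7.16, 7.12 and 7.11. Of 10 B cell markers 4 were higher in OVA and 5 in OVA/PM, with summed levels of 11.08 to 12.36 in Control, 12.44 to 13.02 in OVA, 11.68 to 12.47 in PM and 12.56 to 13.16 in OVA/PM. T cell markers were higher for 7 of 10 genes in OVA and 6 of 11 in OVA/PM. Lung endothelium markers were lower for 4 of 8 genes in OVA and 7 of 8 in OVA/PM, and 0 markers of any of these lists were called in PM. On all 3 arrays of Control, 3 of 12 dendritic and 1 of 11 B cell markers lay under the level of 4.93, and none of the 15 macrophage markers did.

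Where a gene had further probe sets with its symbol alone, these mostly moved the same way. In OVA, 29 of 29 further probe sets tested, of 15 genes, had the sign of the probe set used, as had 29 of 30 in OVA/PM and 26 of 28 in PM. A call differed between probe sets of the same gene for 5 genes in OVA (Cd40, H2-D1, H2-K1, Psmb8 and Tapbp) and 5 in OVA/PM (Calr, Ciita, H2-D1, H2-K1 and Tapbp).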

How the data were processed

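Lung RNA was hybridized to 12 Affymetrix whole-genome mouse arrays. The authors deposited log2 values, background-corrected, quantile-normalized and summarized over probes by GCRMA, for 45101 probe sets. The submitters' processing notes also name MAS5, and versions of neither are given in the sources used here. The number of arrays limits the precision. Each array was taken with the group of its label.

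The platform annotation gave 1 symbol to 34958 probe sets, several to 932 and none to 9211. Pairs of groups were compared by moderated linear models in limma 3.58.1 (R 4.3.3), with Benjamini-Hochberg adjusted p-values across every probe set in the fit, and the interaction in a fit of the 4 groups. The study's own test, SAM, was not used. In place of its present calls, a probe set entered a fit if every array of at least 1 of the groups was at 4.93 or above. Folds are powers of 2 of the fitted log2 differences. Percentages of all genes use 1 probe set per gene. The fits were tested on simulated data. Tables and figures were made with Python 3.11.15 and matplotlib 3.10.9.

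The genes, the lists and the comparisons were chosen with earlier results of these data known. All 35 genes were to be named, and of other lists at most 4 per comparison by lowest p beside the counts. Alternatives tried were to drop the filter or raise it to the 75th percentile (8.65), to quantile-normalize again, to add 16 to the linear values, to fit all 4 groups at once, and to use the replicate number as a block or each gene's probe set of lowest p, and each array was left out in turn. The replicate numbers were not taken as pairs: among 18 same-numbered pairs, 3 had deviations from the group means that correlated over 0.1.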

Additional observations from a re-analysis of the deposited data

How the results depend on the processing

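No gene called in any comparison changed direction under any alternative run. Apart from single arrays left out, a gene's call was lost in 29 of 101 values for OVA against Control, 13 of 136 for OVA/PM against Control and 11 of 68 for OVA/PM against PM, and without single arrays in 65 of 90, 53 of 120 and 39 of 60. Without the filter on low values, 3 genes were called in OVA against Control (15 as reported), 12 in OVA/PM against Control (20), 5 in OVA/PM against PM (10) and 0 in OVA against PM (1). The fit of all 4 groups called 23 in OVA against Control and 8 in OVA against PM. OVA against PM also gave 7 with the filter at the 75th percentile, 4 with the offset and 2 with the probe set of the lowest p. With the replicate block, 0 genes were called in OVA against Control and 6 in OVA/PM against PM, beside 15 in OVA/PM against Control, and of all genes tested the block left 52 higher in OVA against Control, where 1274 were higher without it. The numbers do not pair the arrays: only 2 of the 12 had their closest match among arrays that share their number, and the median correlation of the 18 pairs was -0.06. Leaving out single arrays moved the count between 0 and 17 in OVA against Control, between 6 and 22 in OVA/PM against Control, between 2 and 8 in OVA/PM against PM and between 0 and 13 in OVA against PM, and kept it at 0 in PM against Control, in OVA/PM against OVA and for the interaction. These 3 counts of 0 were also 0 under every other alternative run. Without single arrays the share of all genes that were higher moved too. It lay between 1.48% and 12.3% in OVA against Control and between 7.51% and 12.7% in OVA/PM against Control. It lay between 5.47% and 6.66% in OVA/PM against PM and between 0.0176% and 8.87% in OVA against PM. With medians in place of means, the gap between class II and class I moved by -0.44 in OVA and by -0.39 in PM, and it followed H2-Ob, Psmb9 and Psmb10 only. Without single arrays the gap between the means moved between -0.12 and 0.16 in OVA, between -0.07 and 0.16 in PM and between 0.13 and 0.33 in OVA/PM. The cause of these shifts was not tested.

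With 3 arrays per group, the smallest change called against Control was that of Erap1 in OVA, 0.41 on the log2 scale. Cd80 lay under the filter level on every array and has no tested change.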
